A study of Mus musculus with 69 samples.

Results

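The genes described here are the interleukins and interleukin receptors of the kidney of lupus-prone NZB/W F1 mice. They were taken by symbol: of 24523 genes in the count tables, 83 had a symbol starting with Il and a digit, and the 64 with at least 100 counts over the 65 original libraries were kept. They comprise 23 ligands, 35 receptor chains, 4 inhibitors (Il1rn, Il1f5, Il18bp and the decoy receptor Il1r2) and 2 genes that share the prefix but are neither (Il4i1, an amino acid oxidase, and Il1bos, an antisense transcript of Il1b). Just inside the count minimum stood Il9 with 101 counts and Il25 with 128, and just outside it Il2 with 98 and Il13ra2 with 82. The mice fell into 3 groups of perfused whole kidneys: 30 young mice of 12 weeks, 27 nephritic mice of 30 to 45 weeks with established proteinuria, and 8 remission mice of 36 to 50 weeks. Remission mice were nephritic animals given 1 dose of cyclophosphamide (50 mg/kg) and 6 doses each of CTLA4Ig (200 µg) and anti-CD40L (250 µg) over 2 weeks, with kidneys taken 8 weeks later while proteinuria was low; young and nephritic mice had no such treatment. Young and nephritic kidneys were collected at 6 Zeitgeber times (ZT, hours after lights on), from ZT0 to ZT20 every 4 h, and remission kidneys at ZT0 and ZT12. Age and treatment changed together with diagnosis and cannot be told apart from it, and remission mice had a sequencing run of their own, which 4 repeated young and nephritic mice bridge.

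Interleukins are secreted signals between leukocytes and between leukocytes and tissue cells. Most bind receptors built from a private chain and a shared one: the common gamma chain (Il2rg) serves IL-2, IL-4, IL-7, IL-9, IL-15 and IL-21, gp130 (Il6st) serves IL-6, IL-11 and IL-27, and both signal through JAK and STAT proteins, whereas receptors of the IL-1, IL-18 and IL-36 ligands and of the IL-17 ligands signal through adaptors to NF-kappaB. IL-34 is made by epithelial cells and shares the receptor of CSF1, on which macrophages depend. In lupus nephritis immune complexes in the glomeruli are followed by infiltration of the kidney by macrophages, T cells and B cells.

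Of the ligands and inhibitors, Il6, Il11 and Il1rn were those that were both higher in nephritic than young kidneys and lower in remission than nephritic kidneys, and the 250 bases before their starts are shown for that reason (RefSeq, GRCm38.p6; the strand of the gene, 5′ to 3′; capitals mark matches to TGANTCA, the AP-1 site, and in Il6 also to the NF-kappaB consensus).
Il6, chr5:30012864-30013113, plus strand: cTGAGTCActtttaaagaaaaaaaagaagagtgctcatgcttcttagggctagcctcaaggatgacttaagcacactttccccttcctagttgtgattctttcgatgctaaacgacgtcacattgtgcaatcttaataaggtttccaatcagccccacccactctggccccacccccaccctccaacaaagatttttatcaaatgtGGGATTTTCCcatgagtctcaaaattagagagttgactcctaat
Il11, chr7:4778142-4778391, minus strand: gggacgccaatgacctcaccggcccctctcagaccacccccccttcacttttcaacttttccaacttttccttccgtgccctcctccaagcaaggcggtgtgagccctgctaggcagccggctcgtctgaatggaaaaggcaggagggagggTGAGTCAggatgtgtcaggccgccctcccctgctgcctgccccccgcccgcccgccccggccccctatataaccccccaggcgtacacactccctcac
Il1rn, chr2:24336610-24336859, plus strand: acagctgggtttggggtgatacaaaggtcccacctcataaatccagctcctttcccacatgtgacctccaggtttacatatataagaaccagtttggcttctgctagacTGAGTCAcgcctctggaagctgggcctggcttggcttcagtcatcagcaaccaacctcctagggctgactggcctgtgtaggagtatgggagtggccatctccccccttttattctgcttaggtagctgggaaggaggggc
Il11 and Il1rn have further annotated starts that lack a match to TGANTCA. Those shown are the ones that hold it, so its presence there follows from the choice of start. TGANTCA began 249 bases before the start of Il6, 98 before that of Il11 and 141 before that of Il1rn. Searched on both strands, it was present in 6.749% of 32851 promoters of this length and in 11 of the 64 promoters listed for 50 of the 64 genes (17.2%). The NF-kappaB consensus began 44 bases before the start of Il6 and was present in 7.251% of all promoters and 5 of these 64 (7.8%). TTCNNNGAA, the STAT site, was in 7.020% of all and 7 of these 64, and CACGTG, the E-box bound by clock proteins, in 6.021% of all and 2 of these 64. A match describes the letters alone.

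Library totals ranged from 25257530 to 35744843 counts in young, 26596500 to 48075977 in nephritic and 13311278 to 21849912 in remission mice, so low transcripts were measured least precisely in remission. Levels are given as TMM-scaled CPM (counts scaled to a common library total). The 8 kidney tubule markers summed to 11700 to 20100 CPM in young, 4690 to 16600 in nephritic and 13100 to 16000 in remission libraries. The mouse labelled HIL5RU (nephritic, ZT12) held the highest nephritic value of 28 of the 64 genes. Summed adrenal markers exceeded 50 CPM in 8 young, 1 nephritic and 0 remission libraries, and results over the day are given with and without these. The remission mouse s9, labelled ZT12, had 27.3 CPM of the clock gene Arntl, against 3.24 to 4.93 in the other ZT12 remission mice and 22.9 to 28.9 in those of ZT0. The counts of 4 mice sequenced again with the remission libraries correlated best with their own first library in 3 mice, and in RX11RU (nephritic) the own library ranked 11. Mice are the replicates, and the tests measure the spread between them.

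In young kidneys the most abundant transcripts per length (median CPM per kb of exon) were receptor chains found on many tissue cells: Il11ra1 at 20, Il10rb at 15.5, Il13ra1 at 15.4, Il17rc at 11.7 and Il6st at 9.45. Il11ra1 has a near-identical neighbour, Il11ra2, listed with 0 counts, and reads shared by both could not be placed uniquely. Among ligands, Il15 led at 6.44 CPM per kb, followed by Il34 at 4.92, which ranked 8 of all 64. Il1b was far lower, at 0.743 CPM per kb and rank 24. In nephritic kidneys the top 4 chains kept their ranks, while Il34 stood at 13.9 CPM per kb (rank 5), Il2rg moved from rank 17 to 7, Il1b from 24 to 9, Il1rn from 55 to 29 and Il1f6 from 61 to 18. In remission Il34 stood at rank 6, Il2rg at 7, Il1b at 16, Il1f6 at 35 and Il1rn at 38.

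Nephritic kidneys held more of most interleukin transcripts than young kidneys. Of 63 genes tested (Il9 had too few counts), 39 were higher (61.9%, where 28.1% of all 17521 genes tested were higher), 6 were lower (9.52%, where 33.9% of all genes were lower) and 18 did not pass; the test was edgeR's quasi-likelihood F test with time and sequencing set in the model and a Benjamini-Hochberg adjusted p of at most 0.05. The median log2 difference was 0.63, against -0.03 over all genes. Among ligands 15 of 22 were higher and 2 lower (median 1.28), and among receptor chains 21 of 35 were higher and 3 lower (median 0.61). By family, 9 of 11 members of the common gamma chain system, 12 of 15 of the IL-1 family and 5 of 8 of the IL-12 family were higher, against 3 of 9 of the IL-17 family and 2 of 6 of the IL-10 family. Several members reached the count minimum mainly through nephritic libraries, in which they had to be high, so these counts describe the list and carry no test of it. Among them were Il1f6, Il6, Il21, Il10, Il9r and Il12a, with 11, 11, 8, 27, 18 and 35 counts in young mice. Their p values for nephritic against young kidneys therefore carry no test of the difference, which the levels of the single mice describe.

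**Figure D1:**
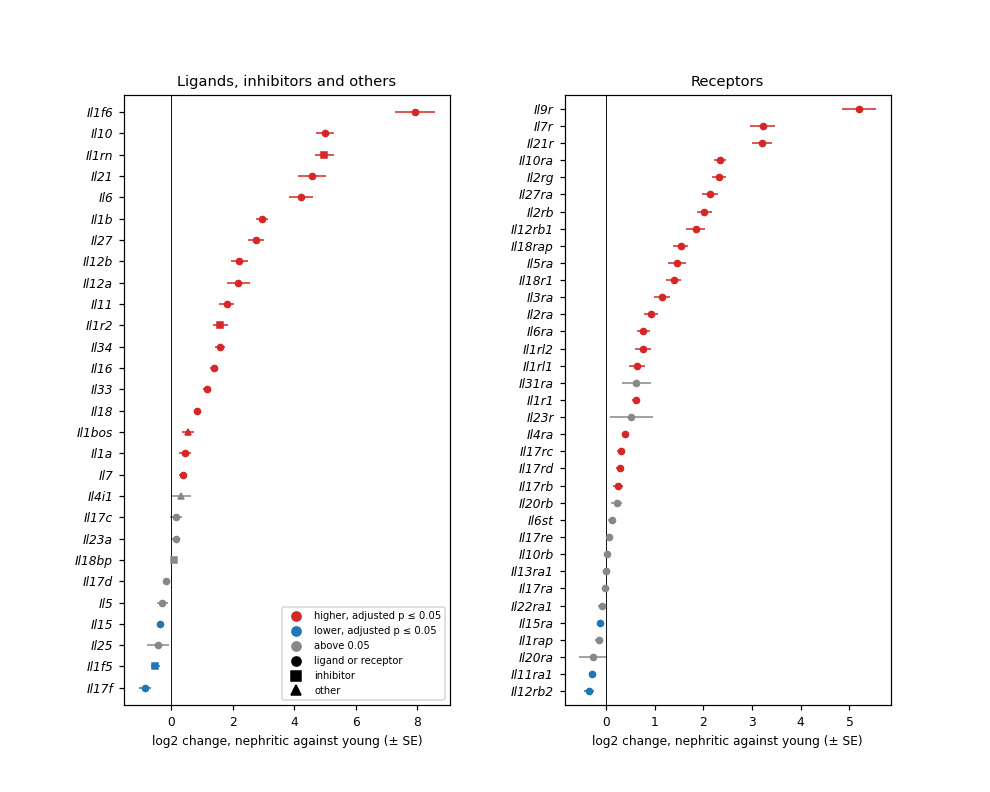
Log2 difference between nephritic (27 mice) and young (30 mice) kidneys for each tested gene, with bars of 1 standard error, ligands, receptors and inhibitors apart. The differences run from 7.92 for Il1f6 to -0.86 for Il17f, and 39 of 63 genes lie above 0 with an adjusted p of at most 0.05.

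The IL-1 family changed at the level of ligands and of their antagonist together. Il1b (GRCm38 chromosome 2, 129364570 to 129371139, minus strand), the main secreted form of IL-1, ranged from 0.659 to 3.53 CPM in young mice (median 1.42) and from 2.67 to 31.9 CPM in nephritic mice (median 11.2). 26 of 27 nephritic mice lay above every young mouse, and the log2 difference was 2.95 (SE 0.19, adjusted p = 2.78e-19). Il1f6, which encodes the epithelial cytokine IL-36 alpha, was close to absent in young mice, with 11 counts in all, 22 of 30 libraries at 0 and a highest value of 0.104 CPM. Nephritic mice held 0.0307 to 21.4 CPM (median 2.47), and 23 of 27 lay above every young mouse. Its log2 difference of 7.92 (SE 0.66, adjusted p = 3.89e-15) was the largest of the 63 genes and rests on those few counts in young mice. Il1rn, the secreted antagonist that occupies the IL-1 receptor without signalling, ranged from 0.0319 to 0.654 CPM in young (median 0.131) and from 0.586 to 14.2 CPM in nephritic mice (median 4.29). Its difference of 4.98 (SE 0.31, adjusted p = 6.59e-20) exceeded that of Il1b, and 26 of 27 nephritic mice lay above all young mice. Il1f6 and Il1rn lie in 1 cluster of 136 kb on chromosome 2 (24215418 to 24351494) with Il1f5, the IL-36 receptor antagonist, whose level was lower: 0.367 to 1.03 CPM in young (median 0.749) and 0.153 to 0.99 CPM in nephritic mice (median 0.517; difference -0.51, SE 0.14, adjusted p = 0.00109). Thus neighbouring genes of the cluster differed in direction, and 7 nephritic mice lay below every young mouse for Il1f5. Il33, an alarmin of stromal and epithelial nuclei, was higher by 1.16 (SE 0.13), Il18, processed by caspase-1, by 0.84 (SE 0.10), and the decoy receptor Il1r2 by 1.60 (SE 0.25). Il18bp, which neutralises IL-18, was 0.08 (SE 0.09, adjusted p = 0.404). Of the IL-1 receptor chains, Il18rap (1.54), Il18r1 (1.40), Il1rl2 (0.76, the IL-36 receptor), Il1rl1 (0.64, the IL-33 receptor) and Il1r1 (0.61) were higher, and the shared accessory chain Il1rap was -0.15 (SE 0.08, adjusted p = 0.113).

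Il34 (GRCm38 chromosome 8, 110741829 to 110805924, minus strand) was the most abundant ligand of the nephritic kidney per length. It ranged from 6.24 to 13.6 CPM in young mice (median 9.63) and from 9.4 to 93.3 CPM in nephritic mice (median 27.3). 23 of 27 nephritic mice exceeded every young mouse, with a log2 difference of 1.59 (SE 0.17, adjusted p = 3.58e-11). Csf1, the other ligand of the same receptor, was higher to a like extent (1.57, SE 0.15, adjusted p = 4e-13), while the receptor Csf1r was higher by 0.21 (SE 0.06, adjusted p = 0.00371).

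The gp130 cytokines Il6 and Il11 rose from low levels. Il6, the inducer of the acute-phase response, gave 11 counts over 30 young mice, 20 of them at 0 and none above 0.0735 CPM. In nephritic mice it ranged from 0.0295 to 1.04 CPM (median 0.239), 22 of 27 lay above every young mouse, and the difference was 4.22 (SE 0.40, adjusted p = 2.98e-13). Il11, a stromal and epithelial cytokine linked to fibrosis, ranged from 0.0986 to 0.478 CPM in young and 0.214 to 3.22 CPM in nephritic mice (medians 0.262 and 0.857), and 20 of 27 nephritic mice lay above every young mouse (1.80, SE 0.23, adjusted p = 3.82e-09). Their receptors moved less: Il6ra was higher by 0.77 (SE 0.13), Il6st was 0.12 (SE 0.07, adjusted p = 0.111), and Il11ra1 was lower.

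Ligands of myeloid and T cells were higher as well. Il10, which restrains macrophages and is made by many leukocytes, ranged from 0 to 0.114 CPM in young mice (27 counts in all, 15 libraries at 0) and from 0.144 to 3.06 CPM in nephritic mice (median 0.786). No nephritic mouse overlapped the young range (difference 4.99, SE 0.29, adjusted p = 1.08e-20). Il21, the helper T cell cytokine for B cells, gave 8 counts in young mice with 23 libraries at 0. It reached 1.64 CPM in nephritic mice (lowest 0, median 0.175), where 19 of 27 lay above every young mouse (4.58, SE 0.46, adjusted p = 1.73e-12). The subunits of the IL-12 family made by antigen-presenting cells followed. Il27 ranged from 0 to 0.282 CPM in young (median 0.0663) and 0.163 to 1.70 CPM in nephritic mice (median 0.407; 2.76, SE 0.27, adjusted p = 7.63e-13), and 21 of 27 lay above every young mouse. Il12b ranged from 0 to 0.267 CPM in young (median 0.0713) and 0.0977 to 0.862 CPM in nephritic mice (median 0.289; 2.22, SE 0.28, adjusted p = 1.65e-09), with 14 above every young mouse. Il12a was higher by 2.19 (SE 0.37), whereas Il23a, the partner of Il12b in IL-23, was 0.15 (SE 0.14, adjusted p = 0.357). Il16, a ligand of CD4, was higher by 1.40 (SE 0.13), from a young median of 5.09 CPM to a nephritic median of 11.9 CPM.

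The 8 receptor chains with the largest differences were Il9r, Il7r, Il21r, Il10ra, Il2rg, Il27ra, Il2rb and Il12rb1. Il2rg, the common gamma chain, ranged from 2.24 to 4.45 CPM in young and from 4.69 to 68.6 CPM in nephritic mice (medians 3.18 and 14.7), without overlap (2.32, SE 0.14, adjusted p = 3.39e-20). Il10ra, the ligand-binding chain of the IL-10 receptor, ranged from 2.06 to 4.74 and from 5.28 to 51.6 CPM (medians 3.21 and 16.9), also without overlap (2.34, SE 0.12, adjusted p = 5.61e-23). With Il10, these were the 3 genes of the set whose nephritic and young ranges were fully apart. How many of all genes had ranges apart was not counted, so this number describes these genes alone. Il21r, the IL-21 receptor of B and T cells, had medians of 0.494 and 4.82 CPM (ranges 0.275 to 0.924 and 0.782 to 28.9; 3.21, SE 0.21, adjusted p = 6.41e-19). Il7r, which marks resting T cells and innate lymphoid cells, had medians of 0.224 and 1.92 CPM (ranges 0.0334 to 0.624 and 0.0651 to 13.2; 3.22, SE 0.25, adjusted p = 6.34e-16). For these genes 26 and 25 of 27 nephritic mice lay above every young mouse. Il9r gave 18 counts in young mice, with 19 libraries at 0 and a highest value of 0.103 CPM. It ranged from 0.0326 to 6.72 CPM in nephritic mice (median 0.528), with 26 above every young mouse (5.20, SE 0.35, adjusted p = 1.51e-18). Il2rb, which carries IL-2 and IL-15 signals, had medians of 1.04 and 4.25 CPM (ranges 0.507 to 2.14 and 1.01 to 20.1; 2.02, SE 0.15, adjusted p = 2.82e-17). Il27ra had medians of 0.808 and 3.33 CPM (ranges 0.328 to 1.29 and 0.912 to 18; 2.14, SE 0.16, adjusted p = 1.12e-16). Il12rb1, shared by IL-12 and IL-23, had medians of 0.217 and 0.722 CPM (ranges 0 to 0.483 and 0.228 to 3.5; 1.85, SE 0.20, adjusted p = 1.55e-11). These 3 chains overlapped between groups in 3, 2 and 8 of the 27 nephritic mice. Exons of Il2rg share 30.5% of their length with those of Gm20489 on the same strand, and the assignment of reads between them was not given.

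**Figure D2:**
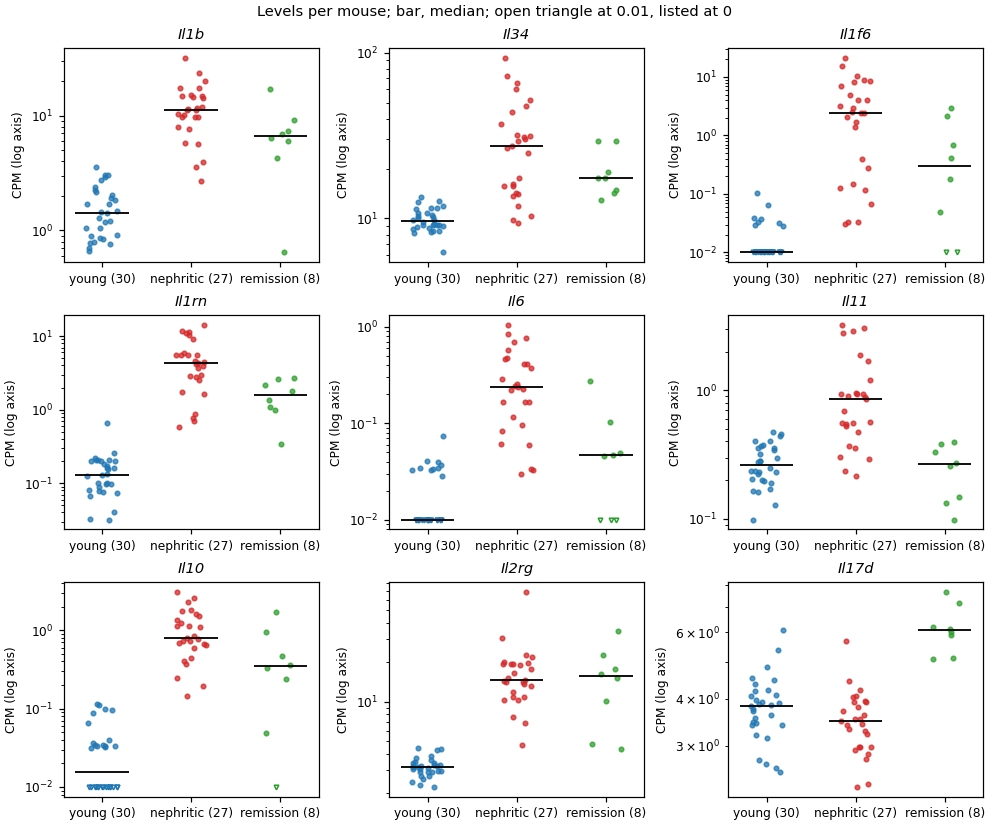
TMM-scaled CPM in every young (30), nephritic (27) and remission (8) mouse for 9 genes on log axes, 1 point a mouse, a bar at the median and open triangles at 0.01 for mice listed at 0. The nephritic points of Il10 and Il2rg lie above all young points, remission points of Il11 lie within the young range, and those of Il17d run from 5.09 to 7.67 CPM.

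Only 6 members were lower in nephritic than young kidneys, and their differences were small. Il17f, a cytokine of the IL-17 family, ranged from 0.615 to 3.20 CPM in young and from 0.0274 to 1.66 CPM in nephritic mice (medians 1.66 and 1.02), with 7 nephritic mice below every young mouse (-0.86, SE 0.20, adjusted p = 0.000148). Il15, which sustains natural killer and memory T cells, ranged from 10.7 to 19.9 and from 5.85 to 18.1 CPM (medians 14.6 and 11.2), with 10 below every young mouse (-0.37, SE 0.06, adjusted p = 2.66e-07). Its presenting receptor Il15ra ranged from 12.9 to 23.1 and from 10.8 to 21 CPM (medians 18.2 and 18; -0.12, SE 0.04, adjusted p = 0.0125). This last difference was within the spread of either group and did not pass in the 2 groups' set 2 mice alone (adjusted p = 0.235) or on leaving out any of 15 single mice, HIL5RU among them. Il12rb2, the signalling chain for IL-12, ranged from 0.896 to 1.91 and from 0.494 to 1.84 CPM (-0.35, SE 0.10, adjusted p = 0.0021). It shares 40.0% of its exon length with Serbp1 on the opposite strand. Il11ra1 ranged from 60.4 to 119 and from 43.6 to 101 CPM (-0.28, SE 0.07, adjusted p = 0.000759), and 5 and 6 nephritic mice lay below every young mouse for these genes. The remaining lower gene was Il1f5.

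Cell markers moved with these differences. All 11 T cell, 8 B and plasma cell and 11 macrophage marker genes tested were higher in nephritic than young kidneys. The summed T cell markers ranged from 7.47 to 15.6 CPM in young (median 10.3), from 12.4 to 243 CPM in nephritic (median 41.9) and from 13.8 to 118 CPM in remission mice (median 50.2). The summed macrophage markers ranged from 123 to 279, from 321 to 2320 and from 340 to 1310 CPM (medians 202, 790 and 704). Of other lists, 6 of 8 dendritic cell, 5 of 7 natural killer and innate lymphoid, 2 of 5 neutrophil, 1 of 5 mast cell and 4 of 6 fibroblast markers were higher, and 4 of 6 endothelial markers lower. Of the 8 tubule markers 2 were higher and 3 lower. In whole kidney, more cells of a type and more RNA per cell cannot be told apart, and the part of cell content in the interleukin differences was not tested.

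Among the 27 nephritic mice the higher genes did not all vary together. Il34 followed Il11 (Pearson r = 0.86, Spearman rho = 0.83) and Il1rn (r = 0.77, rho = 0.84), each with a permutation p of 1e-05, the smallest that 100000 resamples can give (adjusted 1.4e-05 over 7 relations, chosen after the values were seen; log2 of CPM + 0.1). Without the 2 mice farthest from the median of Il34 the r values were 0.85 and 0.77, in the 22 mice of set 2 they were 0.80 and 0.74, and within time labels 0.89 and 0.77; set 1 had 5 nephritic mice, too few for a value. Il2rg followed Il21r (r = 0.95, rho = 0.93) and Il16 (r = 0.96, rho = 0.93), with the same p, and the values without 2 mice were 0.90 and 0.92. The summed T cell markers followed Il2rg (r = 0.96, rho = 0.94; 0.92 without 2 mice, 0.93 in set 2). By contrast Il34 against Il2rg gave r = 0.35 and rho = 0.35 (permutation p = 0.0675 and 0.0721, adjusted 0.0788 and 0.0841), and the T cell markers against Il34 gave r = 0.34 and rho = 0.27 (permutation p = 0.0789 and 0.167). Neither passed, and the values without 2 mice were 0.30 and 0.18. Il1f6 split the nephritic mice into 9 with 0.0307 to 0.397 CPM and 18 with 1.38 to 21.4 CPM. Il34 ranged from 9.4 to 17.4 CPM in the lower 9 and from 15.6 to 93.3 CPM in the upper 18, a split set at a gap seen in the data and therefore given with no test. All values of a mouse come from 1 library.

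**Figure D3:**
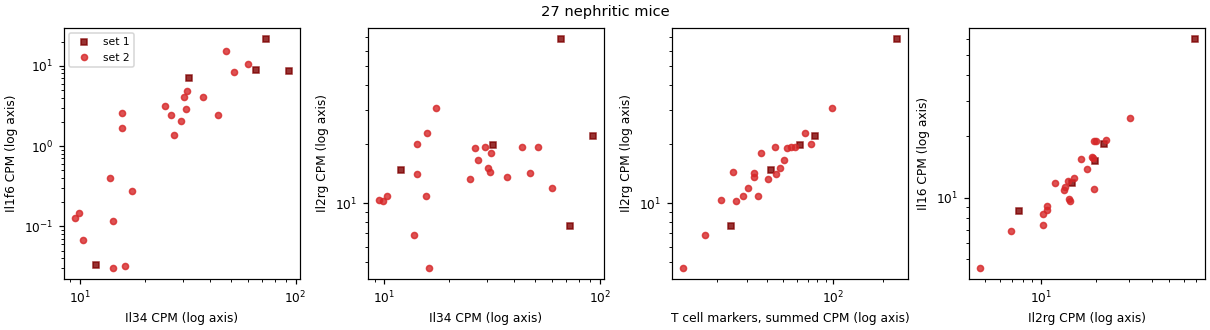
The 27 nephritic mice by CPM on log axes, squares for set 1 and circles for set 2: Il1f6 against Il34, Il2rg against Il34, Il2rg against the summed T cell markers and Il16 against Il2rg. Il1f6 falls into 9 low and 18 high mice, Il2rg has a loose relation to Il34 (r = 0.35), and it follows the T cell markers (r = 0.96) and Il16 (r = 0.96).

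Over the day, 18 of 50 members tested varied in young kidneys (36%, where 39.8% of all 16521 genes tested varied), 5 of 14 ligands and 13 of 31 receptor chains. The share was near that of all genes. Among the 18 members that varied, those with the widest 24 h amplitude on the log2 scale were Il1b (0.63, SE 0.15, adjusted p = 0.0109), Il17f (0.54, SE 0.11, adjusted p = 0.00481), Il6ra (0.53, SE 0.12, adjusted p = 0.0138), Il3ra (0.38, SE 0.08, adjusted p = 0.00385) and Il20rb (0.37, SE 0.11, adjusted p = 0.0137). Il1b was low in the light phase, with 0.659, 1.04, 1.43 and 0.887 CPM in the 4 mice of ZT4 and 0.758, 0.778, 1.27 and 0.845 CPM at ZT8. At ZT16 the 4 mice held 2.24, 1.4, 3.05 and 2.39 CPM, so that 3 of 4 lay above every mouse of ZT4 and ZT8. Il17f had its lowest mean at ZT8 (0.885 CPM, SD 0.278, n = 4), with 0.72, 0.615, 1.24 and 0.966 CPM, and its highest at ZT20 with 1.95, 2.06, 2.37 and 2.31 CPM. These 2 times did not overlap. Il3ra, the IL-3 receptor chain, had 3.9, 5.94, 4.71 and 5.03 CPM at ZT8 and 2.37, 2.77, 1.81 and 2.44 CPM at ZT20, again without overlap. Il6ra was lowest at ZT4 (1.81, 2.05, 2.39 and 2.09 CPM) and highest at ZT16 (7.97, 3.25, 7.29 and 3.77 CPM). Il15 varied with smaller amplitude but the second smallest p of the set (adjusted p = 9.09e-06), with a mean of 11.2 CPM at ZT0 (SD 0.472, n = 7) and 16.8 CPM at ZT8 (SD 0.71, n = 4). Without the 8 young libraries above 50 CPM of adrenal markers 8 members varied, namely Il17rb, Il15, Il10rb, Il4ra, Il15ra, Il13ra1, Il17f and Il3ra, whereas Il1b (adjusted p = 0.104), Il6ra (0.275) and Il20rb (0.115) did not pass. The share of all genes that varied in this smaller set of mice is not given. All 8 adrenal and all 5 fat markers varied over the day in young mice, the summed fat markers having medians of 156 CPM at ZT8 and 464 CPM at ZT16. The part of either tissue in the variation of Il1b, Il6ra and Il20rb was not tested.

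**Figure D4:**
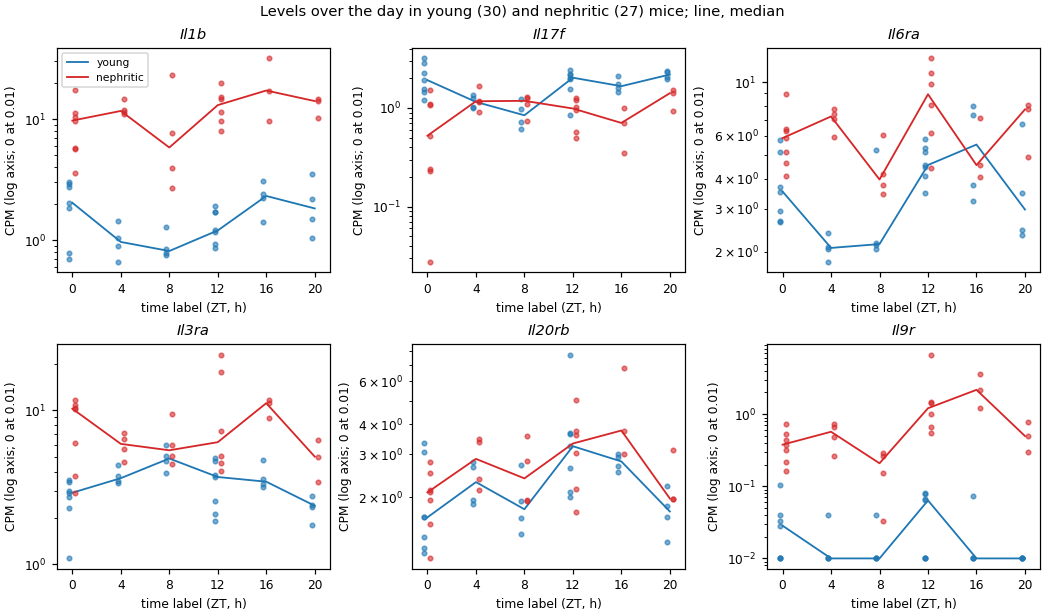
TMM-scaled CPM on log axes by time label (ZT, h) in 30 young and 27 nephritic mice for the 5 members with the widest amplitude among those that varied in young mice and for Il9r, the widest among those that varied in nephritic mice, 1 point a mouse (0 drawn at 0.01) with the median as a line. In young mice Il17f is lowest at ZT8 (mean 0.885 CPM), where Il3ra is highest (mean 4.9 CPM).

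In nephritic kidneys 13 of 59 members varied over the day (22%, where 21.6% of all 16872 genes did), and 6 of them belonged to the common gamma chain system, of which 11 members were tested. None of the 15 IL-1 family members passed. Without the library above 50 CPM of adrenal markers the count was 15, with no share over all genes given. Among the 13, the widest amplitudes, given with the p of the test over the 6 times, were those of Il9r (1.21, SE 0.31, adjusted p = 0.00245), Il7r (1.00, SE 0.30, adjusted p = 0.00995), Il12a (0.88, SE 0.29, adjusted p = 0.0163), Il21r (0.71, SE 0.24, adjusted p = 0.0201) and Il2rb (0.60, SE 0.20, adjusted p = 0.0293). The call of Il21r ended without RX9RU (adjusted p = 0.055) and that of Il2rb without HIL5RU, RX100, RX12RL, RX11RU or RX8LL, with an adjusted p of up to 0.0614. In a test of the cosine itself Il9r passed (0.0245), while Il7r (0.0545), Il12a (0.132), Il21r (0.127) and Il2rb (0.154) did not. All 5 had their lowest fitted time at ZT8 and their highest at ZT16, or ZT12 for Il7r. The pattern over the day differed between nephritic and young mice for 3 of 63 members (4.76%, where 6.27% of all genes differed): Il16 (adjusted p = 0.0161), Il2rg (0.0326) and Il21r (0.0372). Il2rg stood at 4.69, 6.9, 17.9 and 10.9 CPM in the 4 nephritic mice of ZT8 and at 20.1, 19.3 and 30.5 CPM in the 3 of ZT16. The ranges of these times did not overlap, whereas young means stayed between 2.97 and 3.49 CPM at all 6 times. Il16 stood at 4.56, 6.87, 13.9 and 9.14 CPM at ZT8 and at 19, 15.7 and 24.6 CPM at ZT16, with young means between 4.63 and 5.47 CPM. Il21r stood at 0.782, 1.59, 4.29 and 2.44 CPM at ZT8 and at 8.5, 5.07 and 13.3 CPM at ZT16, with young means between 0.447 and 0.629 CPM. At both times the mice kept a like order for the 3 genes, RX7LU being lowest at ZT8 and RX9RU highest at ZT16. At ZT12 the lowest, median and highest of 6 mice were 14, 20.7 and 68.6 CPM for Il2rg, the highest being HIL5RU. The summed T cell markers had nephritic medians of 30.6, 42.9, 26, 58.6, 73.3 and 40.6 CPM from ZT0 to ZT20, all 11 of them varied over the day, and each mouse gave 1 time. Differences between times can therefore not be told apart from differences in lymphocyte content between these mice. Without libraries above 50 CPM of adrenal markers Il16 alone still differed in pattern (adjusted p = 0.0488). Without HIL5RU Il16 alone passed, and its call held on leaving out each mouse in turn, whereas Il2rg lost its call without any of 7 mice and Il21r without any of 17.

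**Figure D5:**
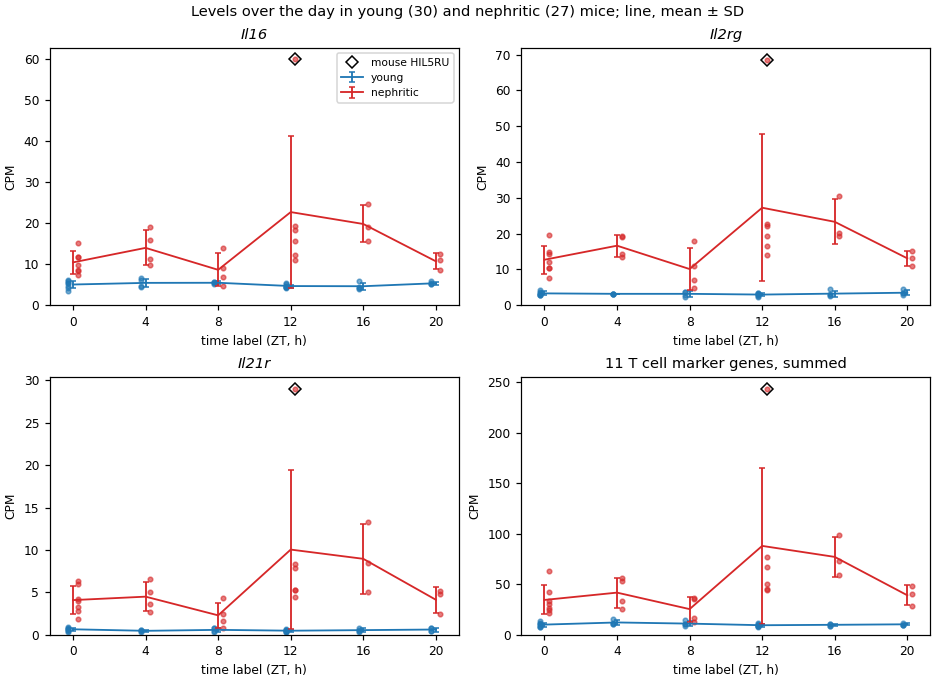
TMM-scaled CPM on linear axes by time label (ZT, h) for Il16, Il2rg, Il21r and the 11 T cell marker genes summed in 30 young and 27 nephritic mice, 1 point a mouse, with the mean as a line and bars of 1 SD. The lowest nephritic point of each panel is at ZT8, and the mouse HIL5RU (open diamond) is highest at ZT12.

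Remission kidneys were compared with nephritic kidneys of the same 2 times (13 mice). Of 57 members tested, 7 were lower (12.3%, where 19% of all 16344 genes tested were lower) and 5 higher (8.77%, where 16.8% of all genes were higher), and the median log2 difference was -0.25 against -0.02 over all genes. The lower members were the gp130 cytokines Il6 and Il11, the IL-1 antagonist Il1rn and 4 receptor chains. Il27 was -0.24 (SE 0.40, adjusted p = 0.666). Il11 stood at 0.148, 0.274, 0.399 and 0.257 CPM in the 4 remission mice of ZT0 and at 0.0989, 0.379, 0.33 and 0.133 CPM in those of ZT12, against 0.354 to 3.22 CPM in the 13 nephritic mice (median 0.96). 6 of 8 lay below every nephritic mouse, and all 8 lay within the young range (-2.46, SE 0.48, adjusted p = 0.000597). Of 6 fibroblast markers 3 were lower too (Col1a1 -1.21, Col3a1 -1.49 and Acta2 -1.13), while Pdgfra (0.44), Pdgfrb (0.04) and Dcn (-0.23) did not pass. The part of fibroblasts in the difference of Il11 was not tested. Il6 gave 10 counts over the 8 mice, with 3 at 0 and a highest value of 0.275 CPM, against 0.0295 to 1.04 CPM (median 0.167) in nephritic mice (-2.26, SE 0.73, adjusted p = 0.0213). With comparison mice of set 2 alone Il6 did not pass (adjusted p = 0.0508). Il6 met the count minimum of this fit through nephritic libraries, where it had to be high, so its p value carries no test of a fall. Il1rn ranged from 0.344 to 2.69 CPM (median 1.58) in remission and from 0.767 to 11.8 CPM (median 5.5) in nephritic mice (-1.83, SE 0.46, adjusted p = 0.00477), with 1 remission mouse below the nephritic range. Of the receptors, Il18rap (-0.74, SE 0.25, adjusted p = 0.029), Il1r1 (-0.52, SE 0.17, adjusted p = 0.0226), Il17rd (-0.50, SE 0.17, adjusted p = 0.0246) and Il15ra (-0.32, SE 0.09, adjusted p = 0.00733) were lower. The calls of Il1r1 and Il17rd ended without remission mouse s10, and that of Il18rap without s1, s9, s10 or s12. With comparison mice of set 2 alone Il1r1 (adjusted p = 0.083) and Il18rap (0.117) did not pass. With the run in the model, bridged by 4 or by 3 repeats, neither Il15ra (0.0507 and 0.0785) nor Il18rap (0.051 and 0.0954) passed, and Il1r1 did not with 3 (0.0714). Of 7 natural killer and innate lymphoid markers 2 were lower too, Ncr1 (-1.32) and Klrb1c (-0.80), and their part was not tested.

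Il17d, a member of the IL-17 family expressed in tissue cells, was the clearest of the higher genes. It ranged from 5.09 to 7.67 CPM in remission (median 6.07) and from 2.33 to 4.45 CPM in the 13 nephritic mice (median 3.53), without overlap (0.86, SE 0.11, adjusted p = 9.78e-06). With the run in the model the difference was 0.57 with 4 repeats (adjusted p = 0.0129) and 0.64 with 3 (0.0182). Il17d was also higher in remission than in young mice of the same times (0.56, SE 0.12, adjusted p = 0.00054). Of the remission mice, 4 lay above all 14 of these young mice. Il1f5 ranged from 0.385 to 2.00 CPM (median 0.909) against 0.153 to 0.99 CPM (median 0.349), with 3 remission mice above the nephritic range (1.28, SE 0.32, adjusted p = 0.00487). Il17f had medians of 1.97 and 0.957 CPM (1.17, SE 0.42, adjusted p = 0.0341), Il12rb2 of 1.68 and 1.02 CPM (0.74, SE 0.21, adjusted p = 0.011) and Il11ra1 of 91.4 and 67.9 CPM (0.45, SE 0.14, adjusted p = 0.0169). The call of Il17f ended without any of 9 mice, s9 among them, with comparison mice of set 2 alone (adjusted p = 0.0927) and without libraries above 50 CPM of adrenal markers (0.0514). With the run in the model Il12rb2 did not pass (0.25 with 4 repeats, 0.0777 with 3), and Il11ra1 did not with 3 (0.0595). In nephritic against young mice Il17d was -0.16 (SE 0.08, adjusted p = 0.054), and the other 4 genes were lower, by the values above. Both comparisons use the nephritic mice of ZT0 and ZT12. All 6 endothelial markers were also higher in remission than nephritic kidneys, and their relation to these genes was not tested.

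Il2rg, Il21r and Il1b did not pass between remission and nephritic kidneys. Il2rg stood at 4.38, 10.2, 16.4 and 17.7 CPM in the remission mice of ZT0 and at 4.8, 22.9, 35.0 and 15.1 CPM in those of ZT12, against 7.65 to 68.6 CPM in nephritic mice (-0.25, SE 0.33, adjusted p = 0.574). Il21r was -0.18 (SE 0.41, adjusted p = 0.764). Il1b ranged from 0.643 CPM in s10 to 17 CPM in s14 (median 6.62), against 3.57 to 20 CPM (median 10.3; -0.60, SE 0.36, adjusted p = 0.189). None of the 11 T cell and 8 B and plasma cell markers passed either. Il34 had medians of 17.5 and 31.8 CPM (-1.01, SE 0.41, adjusted p = 0.0552), and its 8 remission values, from 12.9 to 29.3 CPM, all lay within the nephritic range. Il1f6 had medians of 0.297 and 2.47 CPM (-2.86, SE 1.12, adjusted p = 0.0511). Both missed the threshold in edgeR's test and passed it in that of DESeq2 (adjusted p = 0.021 and 0.00784). They also passed on leaving out single mice, for Il34 any of CRS6LL, RX11LL, RX12LL, RX10RL and RX11RU and for Il1f6 any of these 5 mice, RX9RL, s12 and s14. With the run in edgeR's model Il1f6 passed (-3.31, adjusted p = 0.0363 with 4 repeats, and -3.94, adjusted p = 0.0381 with 3), and Il34 did not.

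Against young kidneys of the same times (14 mice), 28 of 50 members tested were higher in remission (56.0%, where 26.2% of all 15982 genes tested were higher) and 4 lower (8.00%, where 26.8% of all genes were lower), with a median log2 difference of 0.38 against -0.01. All 10 common gamma chain members tested differed, 8 of them higher. The largest were Il1f6 (5.24, SE 0.71, adjusted p = 2.35e-06), Il9r (4.10, SE 0.54, adjusted p = 1.7e-06), Il1rn (3.47, SE 0.31, adjusted p = 8.87e-09), Il21r (3.40, SE 0.36, adjusted p = 1.1e-07), Il7r (3.20, SE 0.42, adjusted p = 1.5e-06), Il2rg (2.32, SE 0.25, adjusted p = 1.53e-07), Il1b (2.12, SE 0.35, adjusted p = 2.72e-05) and Il1r2 (2.05, SE 0.34, adjusted p = 2.36e-05). Il1f6 had 11 counts over all 30 young mice and 128 in remission, and Il9r had 18 and 107. Both met the count minimum of this fit through remission libraries, where they had to be high, so their p values here carry no test of the difference. For Il21r, Il2rg and Il1rn all 8 remission mice lay above the 14 young mice, for Il1b 7 and for Il1f6 5. Il34 was higher by 0.95 (SE 0.11, adjusted p = 3.6e-07), with all 8 mice above the highest of the 14 young mice (12.7 CPM). Il11 was -0.07 (SE 0.31, adjusted p = 0.861). The mice s1 and s10 were lowest and s12 and s14 highest for Il2rg, Il21r and Il16. The lower genes were Il15 (-0.53, SE 0.08, adjusted p = 5.42e-06), Il15ra (-0.43, SE 0.07, adjusted p = 1.92e-05), Il1rap (-0.26, SE 0.08, adjusted p = 0.0106) and Il10rb (-0.12, SE 0.05, adjusted p = 0.0434, lost without any of 15 mice). For Il15 and Il15ra 7 of 8 remission mice lay below every young mouse. With the sequencing run in the model, bridged by the 4 repeated mice, 20 members were higher and 1 lower. Bridged without the repeat of RX11RU, 15 were higher and 1 lower. Most of the lower calls above were thus lost in either model. The share of all genes is not given for these counts.

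Genes that act with the interleukins were counted in the same comparisons, where the background was 28.1% of genes higher and 33.9% lower for nephritic against young kidneys, and 16.8% and 19% for remission against nephritic kidneys. For remission against young kidneys it was 26.2% and 26.8%. Of 18 partner cytokines and receptors, 14 were higher and 3 lower in nephritic than young kidneys, and 2 were higher and 8 lower in remission than nephritic kidneys. The gp130 cytokines Lif (3.74, SE 0.33, and -2.74, SE 0.76) and Clcf1 (1.81, SE 0.22, and -2.30, SE 0.52) and the oncostatin receptor Osmr (1.55, SE 0.15, and -1.05, SE 0.33) passed in both comparisons, which share nephritic mice. Csf1 fell by 0.99 in remission (SE 0.34, adjusted p = 0.0298). Of 22 JAK and STAT pathway genes 10 were higher and 5 lower in nephritic than young kidneys, and 5 were higher and 4 lower in remission than nephritic kidneys. The feedback inhibitor Socs3 was higher in nephritic kidneys (3.14, SE 0.24) and was -1.58 in remission against nephritic kidneys (SE 0.52, adjusted p = 0.0227). Of 19 genes of IL-1 and IL-17 signalling 11 were higher and 4 lower, and 1 was higher and 4 lower in remission than nephritic kidneys, where the IL-17 target regulator Nfkbiz was -1.85 (SE 0.34, adjusted p = 0.000412). All 11 inflammasome genes, whose products release mature IL-1 beta and IL-18, were higher in nephritic kidneys (Casp1 2.15, SE 0.14; Nlrp3 1.44, SE 0.15), 3 were lower in remission than nephritic kidneys, and 10 were higher in remission than young kidneys. Of 13 acute-phase genes, which IL-6 family cytokines induce, 9 were higher and 1 lower in nephritic kidneys and 9 lower in remission than nephritic kidneys, including Lcn2 (4.95, SE 0.43, and -2.93, SE 0.90) and Timp1 (5.19, SE 0.41, and -3.00, SE 0.77). In young mice 11 of the 13 varied over the day, where 39.8% of all genes did. Their sum had a young median of 1690 CPM at ZT16, where the 4 mice ran from 204 to 3100 CPM. Single young mice were high at other times too, such as ZT8LU with 2540 CPM where the median of ZT8 was 166 CPM. The summed adrenal markers had a young median of 812 CPM at ZT16, and the part of adrenal tissue in the acute-phase sum was not tested. The highest nephritic median of a time label was 857 CPM, at ZT0. The young and nephritic ranges of this sum overlapped, at 155 to 3100 and 263 to 3390 CPM.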

How the data were processed

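Total RNA of perfused kidneys was sequenced as 150 bp reads on an Illumina HiSeq, which the study's methods call both paired-end and single-ended. The authors deposited raw counts per gene symbol from uniquely aligned reads on mm10. The study's methods name a Burrows-Wheeler aligner and the submitters' processing notes HISAT, with no version, and whether counting used strand is not given in the sources used here. Of 24538 symbols 15 with empty cells were not used. Of 69 libraries, 65 originals entered the comparisons and 4 repeats only the run check. Sequencing set 1 comprised 5 nephritic and 6 young mice taken at ZT0 or ZT12, set 2 the other young and nephritic originals, and the remission run the remission mice and the repeats. Counts were analysed as deposited with edgeR 4.0.16 in R 4.3.3: TMM scaling, a minimum of 100 counts per gene summed over the fitted mice, quasi-likelihood F tests and Benjamini-Hochberg adjustment over all tested genes (adjusted p at most 0.05). SE was the log2 difference over the root of F. Amplitudes came from a cosine of 24 h on log2 CPM with a prior count of 2. Depth, from 13311278 to 48075977 counts a library, limits members below about 0.1 CPM. Alternatives were DESeq2 1.42.0, other scaling, no filter, no set term, set 2 alone, a cosine, left-out mice and, chosen after seeing the data, libraries low in adrenal markers and a bridge by 3 repeats. On simulated counts the level test recovered 183 of 199 genes changed 2-fold (17465 genes) and the remission against nephritic test 152 of 198 (16232 genes). No 2 libraries held identical counts. Members, roles and lists were chosen with earlier results of these data known. Named with values were Il1b and Il34, the 8 ligands or inhibitors and the 8 receptors with the largest changes, up to 8 falls (6 passed), members passing the pattern and remission against nephritic tests, the 5 widest amplitudes a group and the 8 largest rises over young. Other members named were chosen after their values were seen.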

Additional observations from a re-analysis of the deposited data

Results flagged for a closer look

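Dixon's criterion sets a mouse apart by chance in about 1 in 20 groups if values are normally distributed and groups independent. CPM was used here without logs and several of the genes vary together, so the number found cannot be set against that rate. Of 140 groups of 4 to 10 mice examined, 19 held a mouse far from the others by this criterion. The mouse HIL5RU (nephritic, ZT12) accounted for 7 of these: Il2rg at 68.6 CPM (others 14 to 22.7), Il16 at 59.9 CPM (11 to 19.3), Il21r at 28.9 CPM (4.46 to 8.34), Il2rb at 20.1 CPM (3.52 to 7.88), Il7r at 13.2 CPM (3.28 to 5.55), Il9r at 6.72 CPM (0.553 to 1.5) and Il12a at 1.2 CPM (0.111 to 0.379). The same library had the highest summed T cell markers of all, 243 CPM. In young mice ZT8LU was high for Il6ra at 5.26 CPM (2.05 to 2.17) and for Il1b at 1.27 CPM (0.758 to 0.845), CR3RL for Il20rb at 7.73 CPM (2.0 to 3.67) and ZT20LU for Il12a at 0.119 CPM (0.0312 to 0.0338), while ZT40 was low for Il2rb at 0.507 CPM (0.782 to 0.795). Il9r was set apart in young mice by a few reads, at 0.103 CPM in ZT0LU, 0.0398 CPM in ZT4LU, 0.0403 CPM in ZT8LL and 0.0744 CPM in ZT16LL. In remission s14 was high for Il9r at 2.86 CPM (0.0989 to 0.9) and Il6 at 0.275 CPM (0 to 0.103) and low for Il12rb2 at 0.88 CPM (1.55 to 2.08).

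The course over the day differed between nephritic and young mice, by edgeR's test of the difference itself, for Il16 (adjusted p = 0.0161), Il2rg (0.0326) and Il21r (0.0372). These were 3 of 63 members (4.76%), where 6.27% of all genes differed. By edgeR's test with a 24 h cosine none of them passed (adjusted p = 0.126, 0.184 and 0.223). In set 2 mice alone Il16 passed (0.0338), whereas Il2rg (0.0613) and Il21r (0.0875) did not.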

How the results depend on the processing

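No result reversed. Among single genes and their comparisons 484 outcomes kept direction and side of the threshold, 41 lost and 6 gained the call. No paired analysis was possible because the labels give no replicate numbers shared between groups. Counts of members that changed by more than 1.5 times were as follows. The share of all genes called under each alternative is not given, so these counts do not set the interleukins apart from other genes. The causes were not tested. Without libraries above 50 CPM of adrenal markers, 8 members (from 18) varied over the day in young mice and 1 (from 3) differed in pattern. DESeq2 gave 22 members varying in nephritic mice (from 13), 9 differing in pattern and 11 lower in remission than nephritic mice (from 7). A 24 h cosine gave 2 members varying in nephritic mice and 0 differing in pattern by edgeR, with 9 at an unadjusted p under 0.05. With the run in the model through 3 repeats, 3 members were higher in remission than nephritic (from 5), 15 higher than young (from 28) and 1 lower than young (from 4); with 4 repeats the last count was also 1. On leaving out single mice, members higher in nephritic mice numbered 38 to 42, lower 5 to 7, varying in young 15 to 20, varying in nephritic mice 8 (without RX9RU) to 21 (without RX10RU), differing in pattern 1 (without ZT12RL, CR3RL, CR3LU, HIL5RU or RX100) to 7 (without RX10RU), lower in remission than nephritic 4 (without s10) to 13 (without RX11RU), higher 4 to 5, higher than young 25 to 30 and lower 3 to 4. Without s9 the calls of Il17f (adjusted p = 0.0672) and Il18rap (0.0502) between remission and nephritic mice ended.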

Other observations

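The 19 interleukin symbols below the count minimum hold several cytokines of T helper cells. Il2 gave 28 counts in young, 62 in nephritic and 8 in remission mice, Il4 gave 26, 28 and 7, and Il13 gave 7, 17 and 3. Il17a gave 1 count in all, in a nephritic mouse, and Il22 gave 1 in young and 1 in nephritic mice. Il3 and Il20 were listed at 0 throughout. Il1f9, the neighbour family member encoding IL-36 gamma, gave 6, 45 and 4 counts, with 19 of 27 nephritic libraries above 0 against 3 of 30 young libraries, and Il24 gave 4, 31 and 4. None was tested between groups, since all fell under the count minimum.

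Both genes that share the prefix without encoding an interleukin overlap exons of other genes, and any effect of this on their counts was not tested. Il1bos, which overlaps Il1b by 25 bases on the opposite strand, was 0.55 higher in nephritic than young kidneys (log2, SE 0.20, adjusted p = 0.0154, edgeR), against 2.95 for Il1b. Il4i1 shares 83.9% of its exon length with Tbc1d17 on the opposite strand, and its difference was 0.32 (SE 0.33, adjusted p = 0.414). Il16 shares 15.3% of its exon length with Stard5, also on the opposite strand.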
